A study of Mus musculus with 12 samples.

Results

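Fatty acid beta-oxidation genes and peroxisome biogenesis genes were followed in 12 RNA libraries of the mouse cell line 3T3-L1, whose preadipocytes become fat cells under hormonal induction. The members were taken by symbol from the deposited table of molecule counts. They are 26 listed genes, called the enzymes below although one, Abcd3, is a transporter, and the 16 genes in the table whose symbol starts with Pex and a digit, called the peroxins. Together they are 42 of 11022 genes in the table. A filter on low counts left 40 of the 42 for testing, 25 enzymes and 15 peroxins. Ehhadh and Pex13 had too few counts and are given by level only.

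The study asked how breast cancer cells without p53 affect adipocyte differentiation. There were 4 groups of 3 libraries. KO CM cells were differentiated with filtered medium conditioned by p53-knockout WEP cancer cells, and WT CM cells with medium from p53 wild-type WEP cells. Regular cells were differentiated without conditioned medium, and undifferentiated cells were preadipocytes grown in 10% calf serum. Every medium was DMEM with sodium pyruvate and penicillin/streptomycin. All 3 differentiated groups received 10% fetal bovine serum and, for 2 days, the inducers rosiglitazone (2 µM), dexamethasone (1 µM), isobutylmethylxanthine (0.5 mM) and insulin (1 µg/mL), then insulin for 2 more days, then maintenance medium. Rosiglitazone activates the nuclear receptor PPAR-gamma. At every step the fresh medium was combined with the same volume of conditioned medium, so the inducers were diluted alike in KO CM and WT CM and not in regular cells, and an effect of the dilution cannot be told apart from one of the conditioned medium against regular cells. Serum changed together with differentiation. The sequenced 3T3-L1 cells are labelled wild type in every group; p53 was absent only from the cancer cells that made the medium. The labels do not say that replicates were separate cultures, so p-values refer to variation among libraries, possibly technical.

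Beta-oxidation shortens fatty acids by repeated rounds of dehydrogenation, hydration, a second dehydrogenation and thiolysis, and the electron transfer flavoprotein carries electrons from the first step towards the respiratory chain. Mitochondria oxidize most common chain lengths, whereas peroxisomes start on very long and branched chains with enzymes of their own. Peroxins insert peroxisomal membrane proteins, import matrix enzymes and divide the organelle. Fat cells mainly store fatty acids, yet mitochondria and peroxisomes both multiply as preadipocytes differentiate.

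Libraries held 987496 to 1376688 molecules in KO CM, 1551876 to 2278126 in WT CM, 1101307 to 2589045 in regular and 1289754 to 1722617 in undifferentiated cells. Levels are CPM (counts scaled to a common TMM-adjusted library size), and "called" means an edgeR adjusted p under 0.05 over all 9378 genes tested. No pair of libraries was a duplicate. By chi-square over degrees of freedom, WT CM replicate 3, the deepest library of its group, differed most from its group. The value was 5.11 and 4.84 against the other WT CM libraries, and at most 2.38 in any other pair of replicates. Correlations of log levels did not single it out. They were 0.974 and 0.975 for its pairs, 0.977 between the other WT CM libraries, and 0.963 to 0.967 within KO CM. Without WT CM replicate 3, WT CM against regular cells still gave 20 enzymes and 6 peroxins called lower, against 20 and 7 with it. The adipocyte markers, 8 of 8 in the table, summed to 8958 to 10160 CPM in KO CM, 17450 to 17940 in WT CM, 27040 to 29240 in regular and 136.7 to 165.7 in undifferentiated cells. The 6 preadipocyte markers, all in the table, summed to 1635 to 1816 CPM in KO CM, 1204 to 1296 in WT CM, 257.7 to 311.9 in regular and 991.8 to 1013 in undifferentiated cells. Singly they did not all follow the sum. In WT CM against undifferentiated cells, 2 of 5 tested were called higher and 1 lower, with a median log2 fold change of -0.195. There 27.9% of all tested genes were called higher and 20.7% lower. Of 7 epithelial markers only Krt8 and Krt18 were in the table, with sums of 4.45 to 12.9 CPM in KO CM, 8.81 to 14.3 in WT CM, 43.9 to 53.1 in regular and 2.06 to 5.67 in undifferentiated cells. Of 6 macrophage markers 3 were in the table and summed to 8.35 to 18.8 CPM over all libraries, and none of 4 endothelial markers was in it. The adipocyte and preadipocyte sums moved with every comparison below, and the Krt8 and Krt18 sums were apart in each that involves regular cells and in WT CM against undifferentiated cells; their part in the members' differences was not tested. In these bulk libraries, fewer differentiated cells and less RNA per differentiated cell cannot be told apart.

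Beta-oxidation genes took up more of the transcriptome after differentiation, and less of that rise was seen with conditioned medium. Enzyme transcripts made up 0.336% ± 0.0139 of molecules in KO CM, 0.43% ± 0.0107 in WT CM, 0.69% ± 0.0164 in regular and 0.258% ± 0.0101 in undifferentiated cells (SD, n = 3 each). Peroxin transcripts made up 0.0587% ± 0.0014 in KO CM, 0.076% ± 0.00163 in WT CM, 0.105% ± 0.00313 in regular and 0.0457% ± 0.0034 in undifferentiated cells. The ranges of the 4 groups did not overlap for either class. The order from the highest group down was regular, WT CM, KO CM and undifferentiated in both.

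**Figure D1:**
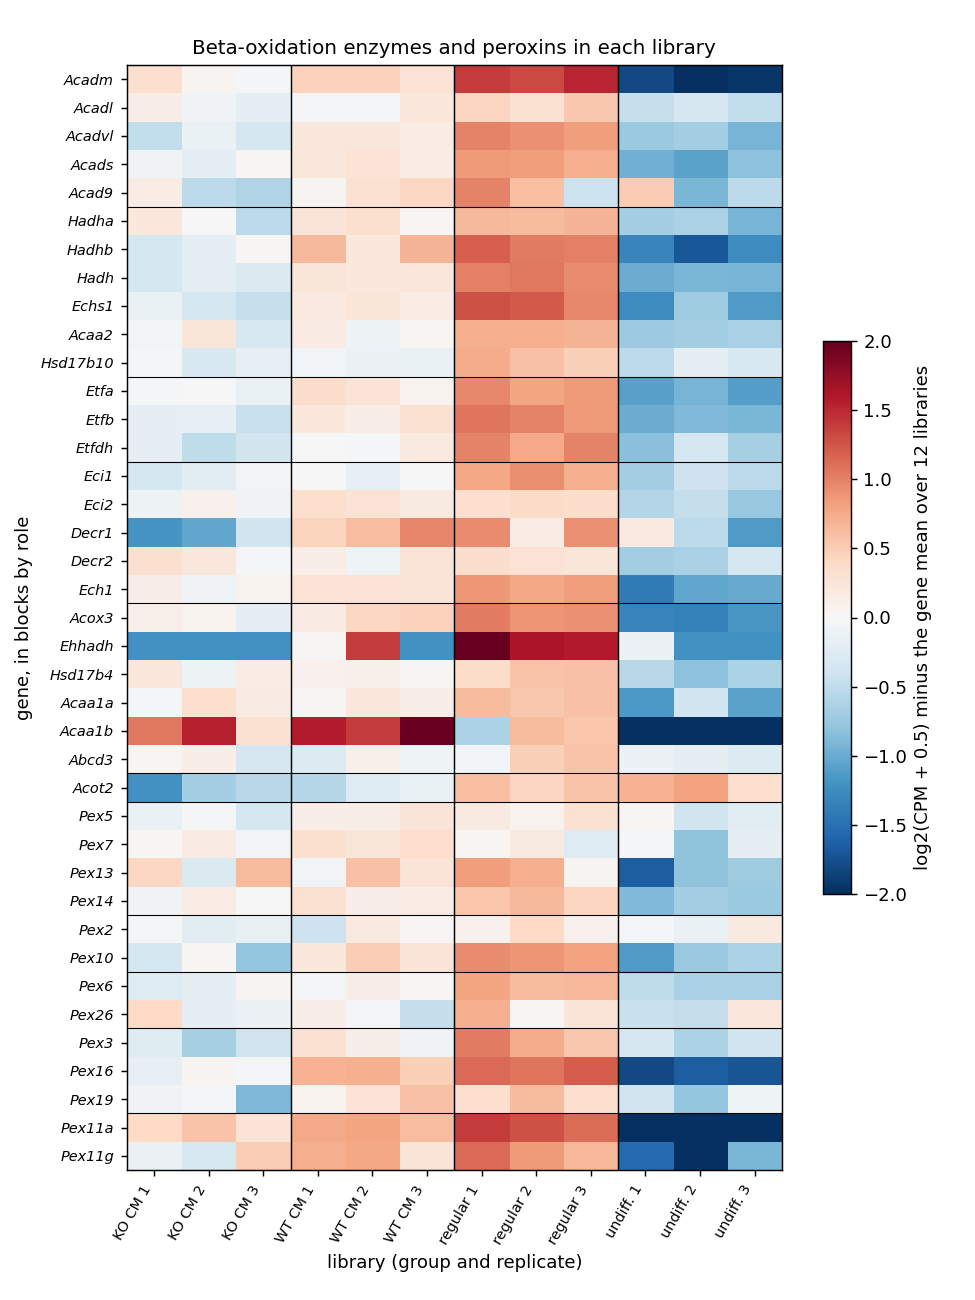
Level of 39 members in each library, as log2(CPM + 0.5) minus the gene's mean over the 12 libraries; columns are libraries by group, rows are genes in blocks by role, and the colour scale stops at 2 units either way. Most rows are red in the 3 regular libraries and blue in the 3 undifferentiated ones, with KO CM and WT CM between. Some rows depart from that order, among them Acot2, Acaa1b, Decr1, Pex2 and Pex7.

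Nearly every tested enzyme and most peroxins were higher after regular differentiation. In regular against undifferentiated cells, 33 of 40 members were called higher and none lower, or 82.5% of them, where 57.6% of all tested genes were called, 29.6% higher and 28% lower. The 33 comprised 23 of 25 enzymes and 10 of 15 peroxins. DESeq2 also called 33 higher and none lower. At an unadjusted p under 0.05, none was lower. The median log2 fold change was 1.44 for the enzymes and 0.94 for the peroxins, against -0.01 for all tested genes. The largest changes among members with counts in both groups were those of Pex11a, Acadm and Pex16. Acaa1b had no counts in undifferentiated cells and was at least 6.64-fold higher in regular cells.

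Most tested enzymes were lower with either conditioned medium than in regular cells, as were 7 of 15 tested peroxins with each. In KO CM against regular cells, 29 of 40 members were called lower and none higher (72.5%), where 43.2% of all tested genes were called, 22.2% higher and 21% lower. The called share was 88% for the enzymes and 46.7% for the peroxins, the second near that of all genes. DESeq2 called 28 lower and none higher, and no member was higher at an unadjusted p under 0.05. In WT CM against regular cells, 27 were called lower and Acaa1b alone higher (70% in all), where 32.6% of all tested genes were called, 17.2% higher and 15.4% lower; by class it was 84% of the enzymes and 46.7% of the peroxins. The median log2 fold change was -0.87 for enzymes and -0.69 for peroxins in KO CM, and -0.57 for enzymes and -0.45 for peroxins in WT CM. With total counts in place of TMM scaling, 11 peroxins in place of 7 were called lower in KO CM. Both comparisons share the regular libraries.

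Levels nevertheless stayed above those of preadipocytes for many members. In KO CM against undifferentiated cells, 24 members were called higher and only Acot2 lower, where 43.7% of all tested genes were called, 26% higher and 17.7% lower. In WT CM against undifferentiated cells, 31 were called higher and again only Acot2 lower, where 48.6% of all tested genes were called, 27.9% higher and 20.7% lower. Of the 15 tested peroxins, 5 (33.3%) were called higher in KO CM, with a median log2 fold change of 0.25. That share was under the 43.7% of all tested genes called and near the 26% called higher. Among the 5, Pex11g lost its call under DESeq2, with total counts and with thinned libraries, among other alternatives. In WT CM 9 peroxins (60%) were called higher, with a median of 0.59. The counts of the 2 media were not tested against each other. The called share of the enzymes was 80% in KO CM and 92% in WT CM. Both comparisons share the undifferentiated libraries. With total counts in place of TMM scaling, the KO CM peroxin median turned to -0.03 and its count of higher peroxins fell to 3.

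Between the media fewer members were called, and all of them were lower with KO CM. In KO CM against WT CM, 13 of 40 members were called lower and none higher (32.5%), where 12.5% of all tested genes were called, 5.86% higher and 6.62% lower. The 13 were 11 enzymes, Acadm, Acadvl, Hadhb, Hadh, Echs1, Etfa, Etfb, Etfdh, Eci2, Decr1 and Acot2, and 2 peroxins, Pex10 and Pex16. By class, 44% of the enzymes and 13.3% of the peroxins were called, so the peroxin share was near that of all genes. At an unadjusted p under 0.05, 22 members were lower and none higher. DESeq2 called 7 lower and none higher. Leaving out KO CM replicate 3 or WT CM replicate 2 gave 7 enzymes lower in place of 11, and leaving out WT CM replicate 3 gave 9. Leaving out KO CM replicate 1, KO CM replicate 3, WT CM replicate 1 or WT CM replicate 2 gave 1 peroxin in place of 2. Acadvl, Hadhb, Hadh, Echs1, Etfb and Pex16 were called lower in every alternative run. None of Acox3, Hsd17b4, Acaa1a, Acaa1b and the transporter Abcd3, the 5 tested members of the peroxisomal spiral and its import, was called, with a median log2 fold change of 0.01 (2 were lower and none higher at an unadjusted p under 0.05, and DESeq2 called none). Eci2 and Decr2, which also act in peroxisomes, are counted with the auxiliary enzymes. Whether the peroxisomal and mitochondrial enzymes differ in this response was not tested.

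**Figure D2:**
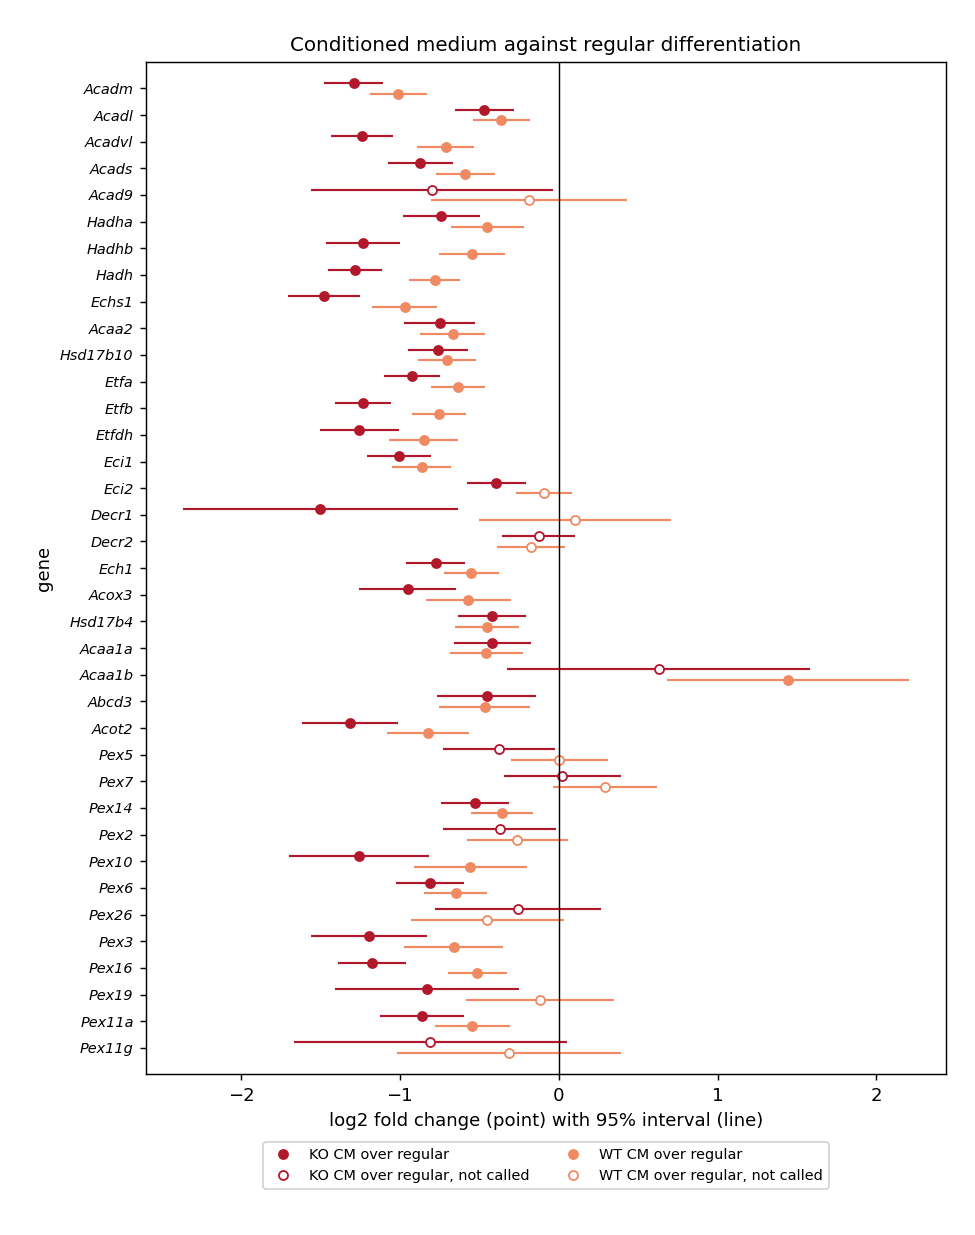
Log2 fold change of 37 tested members in KO CM (red) and WT CM (orange) over regular cells, with its 95% interval (normal approximation from the SE); filled points were called at an edgeR adjusted p under 0.05. Most points lie left of 0, Acaa1b lies to the right, and Echs1 and Decr1 reach the lowest KO CM values, -1.48 and -1.50.

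The acyl-CoA dehydrogenases open each mitochondrial round. Acadm, the medium-chain enzyme and a known PPAR target (chromosome 3, 153922357 to 153944632, minus strand), had 327.9, 269.4 and 252.6 CPM in KO CM, 355.8, 358.6 and 317.3 CPM in WT CM, 680.9, 651 and 743.7 CPM in regular, and 73.8, 61.6 and 66.8 CPM in undifferentiated cells. The regular libraries were the highest and the undifferentiated ones the lowest, with no overlap, whereas KO CM and WT CM overlapped. Acadm was 10.2-fold higher in regular than in undifferentiated cells (log2 3.35 ± 0.11 SE, edgeR adjusted p = 1.83e-29). It was 2.44-fold lower in KO CM (-1.29 ± 0.09, edgeR adjusted p = 8.72e-16) and 2.01-fold lower in WT CM (-1.01 ± 0.09, edgeR adjusted p = 1.29e-12) than in regular cells. Between the media the difference was small, -0.28 ± 0.10 (edgeR adjusted p = 0.0455). That call was lost in 11 of 20 alternatives.

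Acadvl, the very long-chain dehydrogenase of the inner membrane (chromosome 11, 70010183 to 70015411, minus strand), had 141.7, 182.6 and 156.1 CPM in KO CM, 233.1, 234.3 and 223 CPM in WT CM, 397.6, 376.5 and 357.2 CPM in regular, and 119.7, 125.4 and 104.3 CPM in undifferentiated cells. No groups overlapped, and KO CM lay nearest to undifferentiated cells. It was lower in KO CM than in WT CM by a log2 fold change of -0.53 ± 0.10 (edgeR adjusted p = 0.000151). Its annotated 3′ end overlaps that of Dvl2 on the other strand, and since the counting strand was not given, reads of the pair cannot be told apart. Acads, for short chains, and Acadl, for long chains, were lower in both media than in regular cells. Acads averaged 117.4 ± 9.17 CPM in KO CM, 143.8 ± 5.74 in WT CM, 216.1 ± 10.2 in regular and 64.1 ± 5.57 in undifferentiated cells, and Acadl 315.5 ± 37.1 CPM in KO CM, 338.6 ± 33.8 in WT CM, 436.4 ± 36.7 in regular and 240.8 ± 13.1 in undifferentiated cells (SD, n = 3 each). Neither was called between the media (edgeR adjusted p = 0.0779 for Acads and 0.554 for Acadl). Acad9, better known for assembling respiratory complex I, was called in no comparison, at 7.95 ± 2.56 CPM in KO CM, 11.9 ± 1.53 in WT CM, 14.2 ± 6.54 in regular and 8.61 ± 4.91 in undifferentiated cells, and its transcript end resembles those of 4 other genes.

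Hydration, the second dehydrogenation and thiolysis follow. Hadha and Hadhb encode the alpha and beta subunits of the mitochondrial trifunctional protein. They are annotated head to head on chromosome 5, Hadha at 30118304 to 30155162 on the minus strand and Hadhb at 30155248 to 30184593 on the plus strand, with 85 bases between their starts. Those bases are shown because the starts of both subunits flank them. They are given for the plus strand of GRCm38.p6 from RefSeq at chr5:30155163-30155247, all in capitals as the interval between the starts.

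Hadha-Hadhb interval: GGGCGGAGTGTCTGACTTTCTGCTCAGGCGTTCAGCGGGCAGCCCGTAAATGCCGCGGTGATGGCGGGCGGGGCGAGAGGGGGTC

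Hadhb had 111, 124.7 and 144.4 CPM in KO CM, 223.6, 164.2 and 226.1 CPM in WT CM, 324.4, 292.3 and 284.5 CPM in regular, and 56.7, 43.2 and 59.1 CPM in undifferentiated cells. All 4 groups were separate. Hadhb was 1.61-fold lower in KO CM than in WT CM (-0.69 ± 0.12, edgeR adjusted p = 6.76e-05). Its divergent neighbour Hadha had 233.8, 200.4 and 140.4 CPM in KO CM, 239.9, 251.7 and 207.1 CPM in WT CM, 316.2, 311.8 and 322.6 CPM in regular, and 125.4, 129.7 and 105.9 CPM in undifferentiated cells. For Hadha the conditioned media overlapped, and the difference of -0.29 ± 0.13 was not called (edgeR adjusted p = 0.151). Whether the pair responded unequally was not tested, and the 3′ end of Hadha also overlaps Garem2 on the other strand.

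Hadh, which oxidizes hydroxyacyl-CoA of short and medium chains (chromosome 3, 131233419 to 131272101, minus strand), had 215, 239.4 and 225.2 CPM in KO CM, 323.8, 319.3 and 320.8 CPM in WT CM, 552, 572.6 and 529 CPM in regular, and 137.9, 145.2 and 144.9 CPM in undifferentiated cells. The groups were far apart relative to their spread. Hadh was 1.42-fold lower in KO CM than in WT CM (-0.51 ± 0.09, edgeR adjusted p = 3.57e-05), 2.44-fold lower in KO CM and 1.72-fold lower in WT CM than in regular cells.

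Echs1, the short-chain enoyl-CoA hydratase (chromosome 7, 140105710 to 140116476, minus strand), had 115.9, 100.2 and 92.6 CPM in KO CM, 146.5, 150.6 and 141 CPM in WT CM, 310.7, 298.6 and 249.3 CPM in regular, and 53.3, 77.9 and 58.1 CPM in undifferentiated cells. The 4 groups did not overlap. Echs1 was 2.79-fold lower in KO CM (-1.48 ± 0.12, edgeR adjusted p = 8.45e-15) and lower in WT CM (-0.97 ± 0.10, edgeR adjusted p = 2.03e-10) than in regular cells. Between the media it was lower in KO CM by -0.51 ± 0.12 (edgeR adjusted p = 0.00265). The thiolase Acaa2 and the dehydrogenase Hsd17b10, which also acts in isoleucine breakdown, were lower in both media than in regular cells with hardly any difference between media. Acaa2 averaged 105.7 ± 20.1 CPM in KO CM, 110.3 ± 10.4 in WT CM, 175 ± 3.02 in regular and 66.3 ± 1.87 in undifferentiated cells. Hsd17b10 averaged 250.7 ± 24.2 CPM in KO CM, 260.9 ± 7.93 in WT CM, 425.9 ± 39.2 in regular and 222.9 ± 26.8 in undifferentiated cells (SD, n = 3 each). Between the media their log2 fold changes were -0.08 ± 0.12 and -0.05 ± 0.10.

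The electron transfer flavoprotein and its dehydrogenase carry electrons to ubiquinone. All of Etfa, Etfb and Etfdh followed one pattern: higher in regular than in undifferentiated cells, lower in both media than in regular cells, and lower in KO CM than in WT CM. Etfb (chromosome 7, 43444083 to 43457800, plus strand) had 313.1, 316.2 and 261.3 CPM in KO CM, 408.3, 389.5 and 438.5 CPM in WT CM, 744.9, 702.4 and 638.7 CPM in regular, and 178.2, 192.7 and 187.6 CPM in undifferentiated cells. No groups overlapped. Etfb was lower in KO CM than in WT CM by -0.48 ± 0.09 (edgeR adjusted p = 0.00015). Etfa averaged 294.6 ± 14.2 CPM in KO CM, 361.4 ± 35.6 in WT CM, 559.7 ± 34.2 in regular and 149.4 ± 9.86 in undifferentiated cells. Etfdh averaged 68.7 ± 8.09 CPM in KO CM, 90.6 ± 7.87 in WT CM, 165.9 ± 15.1 in regular and 57.5 ± 10.2 in undifferentiated cells. Their calls between the media (edgeR adjusted p = 0.025 for Etfa and 0.0389 for Etfdh) were each lost in 6 alternatives.

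Promoter windows of RefSeq, 250 bases before to 50 after the start on GRCm38.p6, were found for 33 of the 42 members. They were searched on both strands for a PPAR response element, the direct repeat AGGTCANAGGTCA with up to 2 mismatches. It matched in 2 of the 37 windows of these 33 genes, those of Echs1 and Etfa, and in 3.86% of the 32851 promoters of the table. The estrogen-related receptor element TNAAGGTCA matched in none of the 33 and in 1.28% of all promoters. Only the bases nearest to the GENCODE gene start are shown, the last 100 before it for Echs1 and the last 150 for Etfa. They are shown because these members' windows hold the repeat, with the match in capitals. For Echs1 the GENCODE start lies before the RefSeq start, and the bases between them are not printed. Counted from the RefSeq start, the match begins at -83 in Echs1 and -77 in Etfa. Echs1 is at chr7:140116477-140116576 and Etfa at chr9:55512244-55512393, both on the minus strand.

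Echs1: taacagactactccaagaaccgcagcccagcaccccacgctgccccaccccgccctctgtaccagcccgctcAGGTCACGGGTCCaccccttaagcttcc
Etfa: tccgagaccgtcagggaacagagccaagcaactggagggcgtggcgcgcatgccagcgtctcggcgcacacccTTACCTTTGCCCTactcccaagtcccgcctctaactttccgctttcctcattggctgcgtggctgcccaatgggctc

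**Figure D3:**
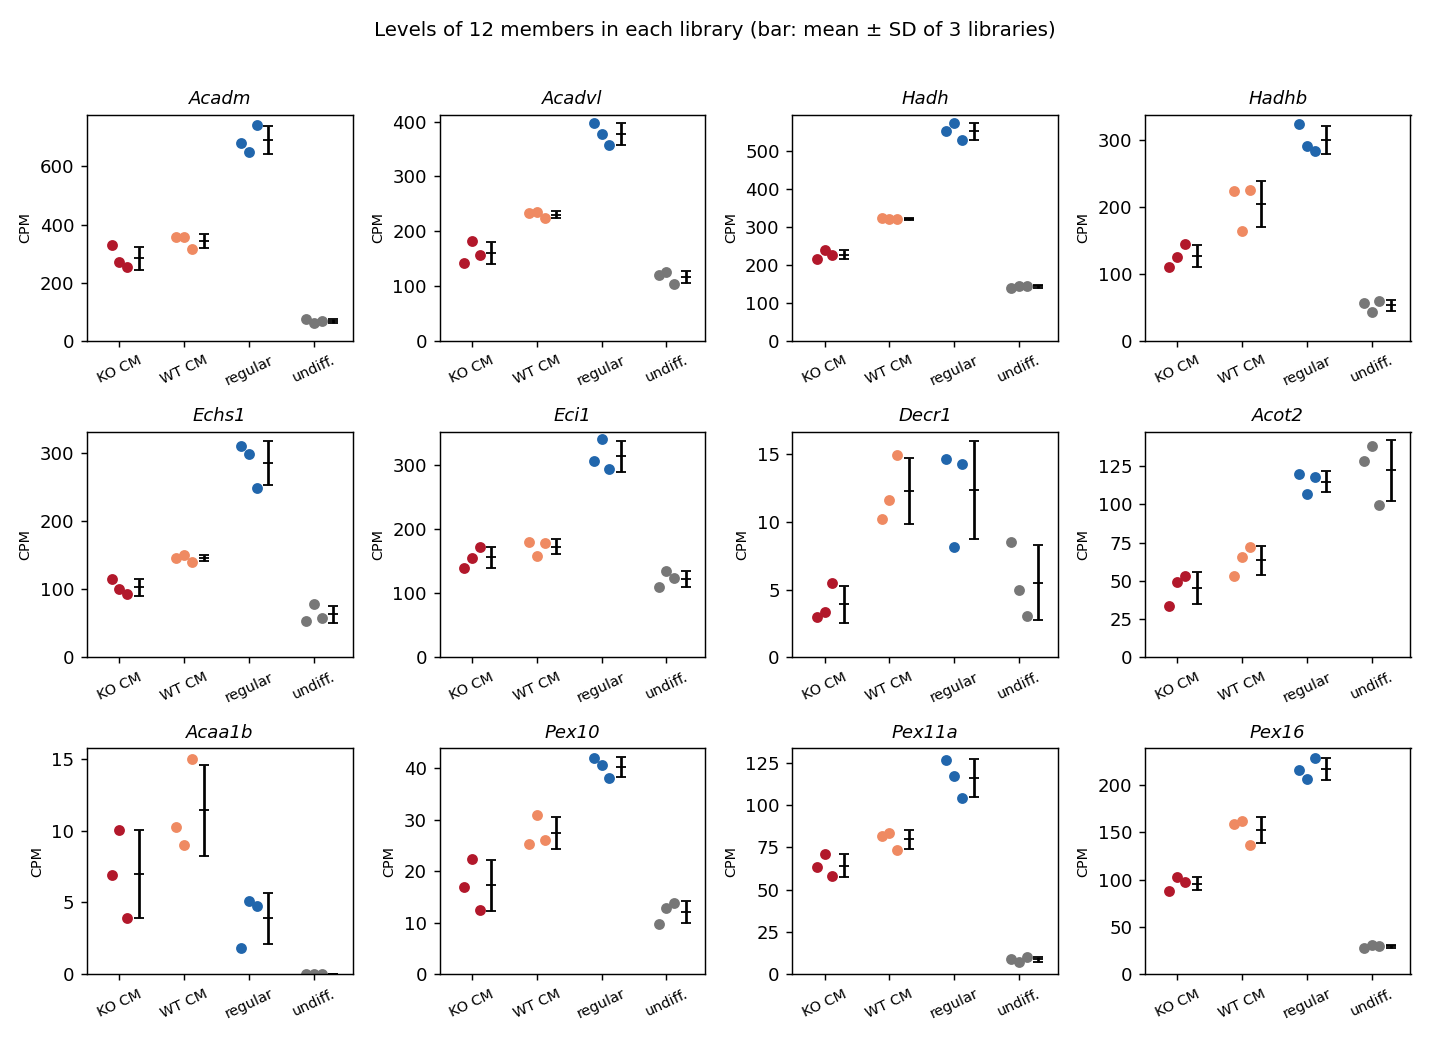
Level of 12 members in CPM (y axis, starting at 0) in the 3 libraries of KO CM, WT CM, regular and undifferentiated cells; points are libraries and the bar beside them is the mean ± SD. Hadh and Pex16 show 4 separate groups, Acot2 is lower with either medium than in the other groups, and Acaa1b is highest with WT CM, at 9.01 to 15 CPM.

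Auxiliary enzymes prepare unsaturated chains for the same spiral, and they were less uniform. Eci1, which moves double bonds into the position the spiral accepts (chromosome 17, 24426641 to 24439348, plus strand), had 139.7, 154.8 and 172.6 CPM in KO CM, 179.9, 158.4 and 178.5 CPM in WT CM, 305.3, 339.9 and 293.4 CPM in regular, and 109.5, 133.9 and 122.8 CPM in undifferentiated cells. The media overlapped, and both lay well under regular cells. Eci1 was 2.01-fold lower in KO CM (-1.01 ± 0.10) and 1.82-fold lower in WT CM (-0.86 ± 0.10) than in regular cells. The end of its transcript resembles those of 119 other genes over at least 100 of its last 300 bases at 90% identity or more, so its counts are uncertain. Ech1, a dienoyl-CoA isomerase, averaged 223.2 ± 15.7 CPM in KO CM, 261.4 ± 4.32 in WT CM, 382.9 ± 13.2 in regular and 97.4 ± 13.7 in undifferentiated cells.

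Eci2 and Decr1 were lower with KO CM but not called between WT CM and regular cells. Eci2, a peroxisomal and mitochondrial isomerase, averaged 206 ± 14.7 CPM in KO CM, 253.6 ± 14.6 in WT CM, 269.4 ± 4.96 in regular and 137.8 ± 13.8 in undifferentiated cells. It was lower in KO CM than in WT CM by -0.30 ± 0.09 (edgeR adjusted p = 0.0284), a call lost in 6 alternatives, and in WT CM against regular cells it gave -0.09 ± 0.09. Decr1, the mitochondrial dienoyl-CoA reductase (chromosome 4, 15917240 to 15945507, minus strand), had 2.97, 3.34 and 5.49 CPM in KO CM, 10.2, 11.6 and 15 CPM in WT CM, 14.6, 8.19 and 14.3 CPM in regular, and 8.51, 4.96 and 3.08 CPM in undifferentiated cells. The KO CM libraries were below every WT CM and regular library and overlapped the undifferentiated ones. Decr1 was 3.04-fold lower in KO CM than in WT CM (-1.60 ± 0.43, edgeR adjusted p = 0.00845). At such low counts the estimate is loose: without WT CM replicate 3 the edgeR adjusted p was 0.0549, and with all libraries thinned to one depth it was 0.346. Decr2, the peroxisomal counterpart, was higher in all 3 differentiated groups than in undifferentiated cells and was called nowhere else, at 115.3 ± 14.9 CPM in KO CM, 110 ± 13 in WT CM, 125.3 ± 5.13 in regular and 69.3 ± 9.06 in undifferentiated cells. Its transcript end resembles those of 4 other genes.

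Acot2, a mitochondrial thioesterase that releases free fatty acids from acyl-CoA (chromosome 12, 83987861 to 83993873, plus strand), was the only member called below the preadipocyte level. It had 33.7, 49.0 and 53.4 CPM in KO CM, 53.2, 65.7 and 71.8 CPM in WT CM, 119.7, 106.8 and 117.5 CPM in regular, and 128.2, 138.2 and 99.7 CPM in undifferentiated cells. Regular and undifferentiated libraries overlapped, and both media were below all of them. Regular against undifferentiated cells gave -0.09 ± 0.12 (edgeR adjusted p = 0.543). Acot2 was 2.64-fold lower in KO CM (-1.40 ± 0.15, edgeR adjusted p = 3.03e-10) and 1.88-fold lower in WT CM (-0.91 ± 0.13, edgeR adjusted p = 1.31e-07) than in undifferentiated cells. The media themselves overlapped, and their difference of -0.49 ± 0.17 (edgeR adjusted p = 0.0437) was lost in 10 of 20 alternatives.

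The peroxisomal spiral begins with acyl-CoA oxidases. Acox3, the oxidase for branched chains, averaged 42.3 ± 4.75 CPM in KO CM, 54.3 ± 5.81 in WT CM, 81.7 ± 4.51 in regular and 17.1 ± 1.23 in undifferentiated cells, and was lower in KO CM (-0.95 ± 0.16) and WT CM (-0.57 ± 0.14) than in regular cells. Hsd17b4, the bifunctional enzyme of branched and very long chains, averaged 113.3 ± 12.8 CPM in KO CM, 111.5 ± 2.03 in WT CM, 151 ± 12.1 in regular and 66.5 ± 6.39 in undifferentiated cells. Between the media it gave 0.03 ± 0.11. Abcd3, which carries acyl-CoA into peroxisomes, averaged 58.1 ± 9.75 CPM in KO CM, 56.6 ± 7.65 in WT CM, 76.5 ± 16.6 in regular and 52.3 ± 2.85 in undifferentiated cells. Its calls against regular cells (-0.45 ± 0.16 in KO CM and -0.47 ± 0.15 in WT CM) were each lost in 4 alternatives. Ehhadh, the other bifunctional enzyme, was not tested: it had no counts in any KO CM library, 1, 4 and 0 counts in WT CM, 8, 8 and 5 in regular, and 1, 0 and 0 in undifferentiated cells. Against a floor of 3 counts over the KO CM group, it was at least 4.74-fold lower in KO CM than in regular cells.

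Acaa1a and Acaa1b encode near-identical peroxisomal thiolases on chromosome 9, Acaa1a at 119339676 to 119350299 on the plus strand and Acaa1b at 119148023 to 119157093 on the minus strand. Acaa1a averaged 136.3 ± 16.3 CPM in KO CM, 132.3 ± 8.81 in WT CM, 182.1 ± 5.4 in regular and 68.1 ± 20.9 in undifferentiated cells, and was lower in both media than in regular cells. Acaa1b, at low counts, had 6.94, 10.0 and 3.92 CPM in KO CM, 10.2, 9.01 and 15 CPM in WT CM, 1.83, 5.07 and 4.77 CPM in regular, and 0 in every undifferentiated library. WT CM was above all regular libraries and overlapped KO CM, which overlapped regular cells. Acaa1b was 2.73-fold higher in WT CM than in regular cells (1.45 ± 0.39, edgeR adjusted p = 0.00292), but without WT CM replicate 3 the edgeR adjusted p was 0.0608. With thinned libraries or a filter of 30 counts in 3 libraries, Acaa1b had too few counts and was not tested. In KO CM against regular cells it gave 0.63 ± 0.49 (edgeR adjusted p = 0.316). Against a floor of 3 counts over the undifferentiated group, it was at least 11.9-fold higher in KO CM, 19.5-fold in WT CM and 6.64-fold in regular cells. The last 300 bases of Acaa1a matched Acaa1b over 168 bases at 98.2% identity, so 3′ reads of the pair may be divided between them. In addition, the end of Acaa1b overlaps Dlec1 on the other strand, so Acaa1b is uncertain on both counts.

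The promoters of the thiolase pair are shown because the genes are near copies with different calls, though the difference between them was not tested. Their 300-base windows were 51.8% identical over 342 aligned columns. The RefSeq start of Acaa1a used here lies inside the gene as annotated by GENCODE, whereas the printed bases of Acaa1b lie before its annotated gene. The 250 bases before the RefSeq start are printed, from chr9:119341044-119341293 on the plus strand for Acaa1a and chr9:119157094-119157343 on the minus strand for Acaa1b, with CCAAT boxes on either strand in capitals. The CCAAT box was found in 14 of the 37 member windows, from 13 of the 33 member genes, and in 37.4% of all promoters.

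Acaa1a: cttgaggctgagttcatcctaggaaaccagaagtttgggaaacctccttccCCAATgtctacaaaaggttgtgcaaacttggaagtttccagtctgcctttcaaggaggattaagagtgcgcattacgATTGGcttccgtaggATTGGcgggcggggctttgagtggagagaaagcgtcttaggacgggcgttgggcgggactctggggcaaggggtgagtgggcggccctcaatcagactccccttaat
Acaa1b: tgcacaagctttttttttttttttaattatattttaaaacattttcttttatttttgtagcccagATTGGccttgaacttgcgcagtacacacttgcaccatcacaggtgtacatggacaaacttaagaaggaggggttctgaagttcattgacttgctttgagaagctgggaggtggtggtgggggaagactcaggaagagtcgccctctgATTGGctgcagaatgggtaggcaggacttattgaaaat

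**Figure D4:**
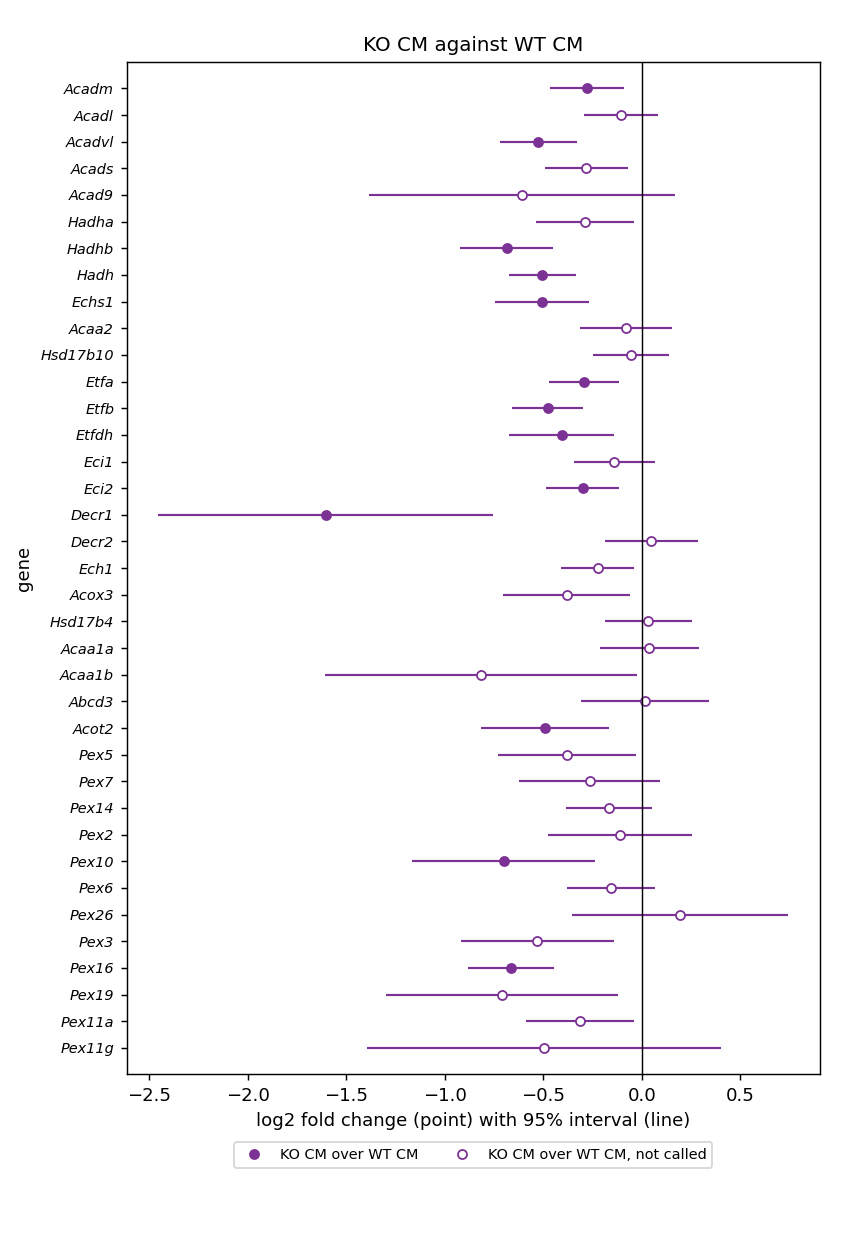
Log2 fold change of 37 tested members in KO CM over WT CM, with its 95% interval (normal approximation from the SE); filled points were called at an edgeR adjusted p under 0.05. The 13 filled points are all left of 0, and Decr1, at -1.60, has the widest interval among them.

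Among the peroxins, the membrane assembly genes were lower with KO CM than in regular cells, where 21% of all tested genes were called lower. With WT CM, Pex3 and Pex16 were also called lower than in regular cells and Pex19 was not, where 15.4% of all tested genes were called lower. Pex3, Pex16 and Pex19 insert peroxisomal membrane proteins, and all 3 were higher in regular than in undifferentiated cells and lower in KO CM than in regular cells. Pex16, which helps form peroxisomes from the endoplasmic reticulum (chromosome 2, 92374676 to 92381217, plus strand), had 88.2, 102.4 and 97.3 CPM in KO CM, 159.5, 162.2 and 136.6 CPM in WT CM, 215.7, 206.6 and 229 CPM in regular, and 27.8, 31.2 and 29.8 CPM in undifferentiated cells. All groups were separate. Pex16 was 7.33-fold higher in regular than in undifferentiated cells (2.87 ± 0.12, edgeR adjusted p = 9.41e-25). It was 1.58-fold lower in KO CM than in WT CM (-0.66 ± 0.11, edgeR adjusted p = 2.12e-05). Pex3 averaged 27.8 ± 4.18 CPM in KO CM, 40.9 ± 5.33 in WT CM, 64.9 ± 11.1 in regular and 27.3 ± 2.84 in undifferentiated cells. The KO CM mean of Pex3 was within the spread of undifferentiated cells, and its difference from WT CM was not called (-0.53 ± 0.20, edgeR adjusted p = 0.0714). Pex19, the carrier that binds new membrane proteins, averaged 11.1 ± 3.51 CPM in KO CM, 17.3 ± 3.23 in WT CM, 18.7 ± 2.37 in regular and 10.3 ± 2.53 in undifferentiated cells. Its call in KO CM against regular cells (-0.83 ± 0.30, edgeR adjusted p = 0.0204) was lost in 4 alternatives.

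Peroxins of the Pex11 family elongate and divide peroxisomes. Pex11a (chromosome 7, 79735957 to 79743131, minus strand) had 63.4, 71.3 and 58.1 CPM in KO CM, 81.8, 83.7 and 73.6 CPM in WT CM, 127, 117.3 and 104.4 CPM in regular, and 9.08, 7.09 and 10.3 CPM in undifferentiated cells. Its groups were separate, with undifferentiated cells far below. Pex11a was 12.8-fold higher in regular than in undifferentiated cells (3.68 ± 0.18, edgeR adjusted p = 1.2e-22), and lower in KO CM (-0.86 ± 0.13) and WT CM (-0.54 ± 0.12) than in regular cells. Although separate, KO CM and WT CM differed by -0.31 ± 0.14, which was not called (edgeR adjusted p = 0.152). Pex11g averaged 4.53 ± 1.55 CPM in KO CM, 6.84 ± 1.35 in WT CM, 8.47 ± 1.47 in regular and 1.3 ± 0.689 in undifferentiated cells (SD, n = 3 each). The fission proteins that peroxisomes share with mitochondria were also counted. None of Dnm1l, Mff and Fis1 was called higher in regular than in undifferentiated cells, where 29.6% of all tested genes were. Fis1 was lower (-0.28 ± 0.10, edgeR adjusted p = 0.0147), where 28% of all tested genes were called lower. At an unadjusted p under 0.05, none of the 3 was higher there, and DESeq2 called none higher. In KO CM against regular cells, Dnm1l (-0.44 ± 0.14, edgeR adjusted p = 0.00942) and Mff (-0.33 ± 0.10, edgeR adjusted p = 0.00591) were lower, where 21% of all tested genes were called lower. In KO CM against undifferentiated cells all 3 were lower, where 17.7% of all tested genes were called lower. These counts over 3 genes were not tested against the shares of all genes.

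Import of matrix enzymes uses receptors, a docking complex, a ubiquitin ligase ring and an export motor. The receptor Pex5 averaged 35.7 ± 3.89 CPM in KO CM, 45.7 ± 2.38 in WT CM, 46.1 ± 3.82 in regular and 35.4 ± 5.55 in undifferentiated cells, and was called in no comparison. The other receptor, Pex7, averaged 41.2 ± 3.09 CPM in KO CM, 49.1 ± 1.92 in WT CM, 39.9 ± 6 in regular and 32.3 ± 8.56 in undifferentiated cells and was called only in WT CM against undifferentiated cells (0.59 ± 0.17, edgeR adjusted p = 0.00431). That call was lost with total counts in place of TMM scaling (edgeR adjusted p = 0.0608) and without undifferentiated replicate 2 (edgeR adjusted p = 0.0552). The docking peroxin Pex14 was higher in regular than in undifferentiated cells (1.33 ± 0.11), and averaged 115.6 ± 9.2 CPM in KO CM, 129.7 ± 8.69 in WT CM, 165.4 ± 12.9 in regular and 66.1 ± 4.84 in undifferentiated cells. Its partner Pex13 was not tested, at 3.63 ± 1.27 CPM in KO CM, 3.59 ± 0.891 in WT CM, 4.51 ± 1.34 in regular and 1.18 ± 0.53 in undifferentiated cells.

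The ubiquitin ligase ring includes Pex2 and Pex10, of which Pex2 was called in no comparison. Pex10 (chromosome 4, 155067016 to 155072433, plus strand) had 16.8, 22.3 and 12.6 CPM in KO CM, 25.2, 30.9 and 26 CPM in WT CM, 42.0, 40.5 and 38.2 CPM in regular, and 9.65, 12.8 and 13.9 CPM in undifferentiated cells. KO CM was below WT CM and overlapped undifferentiated cells. Pex10 was 1.63-fold lower in KO CM than in WT CM (-0.70 ± 0.24, edgeR adjusted p = 0.0426), a call lost in 8 of 20 alternatives. Pex2 averaged 38.0 ± 2.51 CPM in KO CM, 40.8 ± 8.63 in WT CM, 48.3 ± 6.12 in regular and 42.5 ± 4.86 in undifferentiated cells.

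Of the export motor, Pex6 was higher in regular than in undifferentiated cells (1.29 ± 0.11) and lower in KO CM (-0.81 ± 0.11) and WT CM (-0.65 ± 0.10) than in regular cells. It averaged 100.8 ± 12 CPM in KO CM, 113.5 ± 6.42 in WT CM, 179 ± 10.4 in regular and 72.6 ± 3.98 in undifferentiated cells. The membrane anchor Pex26 was called nowhere, at 18.6 ± 4.49 CPM in KO CM, 16.6 ± 3.55 in WT CM, 23.3 ± 6.13 in regular and 15.6 ± 4.72 in undifferentiated cells.

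Other genes of the same pathways were counted from lists. Of 32 tested further peroxisomal enzymes and membrane proteins, 27 were higher and 1 lower in regular than in undifferentiated cells, where 57.6% of all tested genes were called, led by the epoxide hydrolase gene Ephx2 (5.09 ± 0.21). In KO CM against regular cells 20 were lower and 1 higher, where 43.2% of all tested genes were called. The lower ones were led by Pxmp2 (-2.76 ± 0.31) and the acyl-CoA oxidase gene Acox2 (-2.43 ± 0.40). Acox2 averaged 4.72 CPM in KO CM and 25.5 CPM in regular cells, and gave -2.52 ± 0.35 in WT CM against regular cells. Next came Gnpat, which starts ether lipid synthesis, at 149.3 CPM in KO CM and 440.8 CPM in regular cells (-1.57 ± 0.10). Between KO CM and WT CM, 10 were lower in KO CM and none higher, where 12.5% of all tested genes were called, with 1 higher at an unadjusted p under 0.05 and none by DESeq2. Of 13 tested other mitochondrial acyl-CoA enzymes, 10 were lower in KO CM and 8 in WT CM than in regular cells, where 43.2% and 32.6% of all tested genes were called in KO CM and WT CM, with none higher in either at the adjusted or at an unadjusted p under 0.05 or by DESeq2. Ivd, of leucine breakdown, gave the largest of these differences, -1.92 ± 0.18 in KO CM and -1.28 ± 0.15 in WT CM.

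The carnitine shuttle and acyl-CoA synthetase genes included calls in both directions. Of 14 tested, 6 were lower and 2 higher in KO CM than in regular cells, where 43.2% of all tested genes were called. In WT CM 4 were lower and 4 higher, where 32.6% of all tested genes were called, but DESeq2 called only 2 lower and 1 higher. Acsl1, which activates long chains, averaged 435.8 CPM in KO CM, 963.2 in WT CM, 1745 in regular and 20.2 in undifferentiated cells. Cpt1a, the gate of mitochondrial fatty acid entry, ran the other way, at 76.8 CPM in KO CM, 47.5 in WT CM, 15.3 in regular and 70.2 in undifferentiated cells. Of 9 tested regulators of oxidation genes, 7 were lower and none higher in KO CM than in regular cells (none higher at an unadjusted p under 0.05 or by DESeq2), where 43.2% of all tested genes were called. In WT CM 6 were lower and 1 higher, where 32.6% of all tested genes were called. Pparg, the receptor that rosiglitazone activates, averaged 270 CPM in KO CM, 491.3 in WT CM, 803 in regular and 32.8 in undifferentiated cells, and was lower in KO CM than in WT CM by -0.87 ± 0.09 (edgeR adjusted p = 5.18e-10). Esrra, a nuclear receptor of mitochondrial genes, averaged 50.6 CPM in KO CM and 83.3 CPM in WT CM (-0.67 ± 0.17, edgeR adjusted p = 0.00488). These levels are given beside those of the members, and their part in the members' differences was not tested.

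The authors' deposited table of DESeq2 comparisons was set beside these calls for the 40 tested members. In the authors' deposited table, 0 members were higher and 6 lower in KO CM against WT CM at an adjusted p under 0.05. Its calls matched those given here for 40 of 40 members in regular against undifferentiated cells, 38 in KO CM and 38 in WT CM against regular cells, and 33 in KO CM against WT CM. No member was called in opposite directions in the authors' deposited table and here in any of the 6 comparisons.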

How the data were processed

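The deposited table held unnormalized UMI counts per gene and library, per the file headers, from MARS-seq, a 3′-end method, with 30 ng of RNA per sample per the labels. The submitters' processing notes name cutadapt, HTSeq, DESeq2 and mm10. The sources used here name no aligner, annotation or counting strand. Deposited log2 fold changes and p-values of the authors were used as named; 24 normalized per-sample columns were not used here.

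Tests used edgeR 4.0.16 under R 4.3.3: filterByExpr by group, TMM scaling, and a robust quasi-likelihood fit of all 12 libraries with 1 coefficient per group and Benjamini-Hochberg adjustment over 9378 genes. Fold changes carry ± SE, and levels SD. The common coefficient of variation was 9.38%. The fit was tested on simulated counts. DESeq2 1.42.0, scaling, filters, depth, a replicate block and leaving out each library were alternatives. Floors of 3 counts cover counting error only.

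Members and lists were chosen with earlier results of these data known. Per-library values are given for the 6 called members with the largest change between the media, the 4 in each of 3 other comparisons, and those called against their class; others (Etfb, Hadha, Hadh, Ehhadh) were chosen after values were seen. Coordinates are from GENCODE M21 (GRCm38), promoters from RefSeq, and transcript ends were compared with BLAST 2.17.0. Some peroxins are included in the counts but not reported singly here.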

Additional observations from a re-analysis of the deposited data

How the results depend on the processing

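With total counts in place of TMM, the median log2 fold change of all genes shifted to -0.17 in regular against undifferentiated cells, -0.12 in KO CM against regular, -0.14 in WT CM and -0.20 in KO CM against undifferentiated cells. All-gene calls, higher and lower, were then 1693 and 2463 (TMM: 2080 and 1971) in KO CM against regular cells, 356 and 818 (550 and 621) in KO CM against WT CM, 2253 and 3332 (2774 and 2630) in regular, 1902 and 3004 (2612 and 1942) in WT CM and 1502 and 3039 (2442 and 1659) in KO CM against undifferentiated cells. Peroxins lower in KO CM than regular cells became 11 in place of 7, and in KO CM against undifferentiated cells 3 were higher in place of 5 and 1 lower in place of 0.

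Enzymes lower in KO CM than WT CM numbered 11; DESeq2 gave 6, a fit of only the 2 groups 7, equal depth by thinning 6, and leaving out 1 library 7 to 11, with 7 without KO CM replicate 3 or WT CM replicate 2. Peroxins lower there numbered 2, and 1 under DESeq2, the 2-group fit and thinning, and 1 to 2 leaving out 1 library. Acaa1b was the enzyme higher in WT CM than regular cells. It had too few counts to be tested after thinning or with a filter of 30 counts in 3 libraries (0 enzymes higher each). Leaving out 1 library gave 0 to 1. Causes were not tested. Counts of enzymes and peroxins in the other comparisons and directions stayed within 1.5 times under every alternative.

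Pairing by replicate number was not seen: deviations of same-numbered libraries correlated at -0.066 to 0.055. These low correlations do not show that the libraries were unpaired, and the labels do not say what a replicate number marks. With the replicate number as a block, 580 genes were higher and 637 lower in KO CM than WT CM; Acot2 lost its call (edgeR adjusted p = 0.0502) and Hadha gained one (0.0482), while 11 enzymes and 2 peroxins were again lower.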
